A study of Mus musculus with 24 samples.

Results

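Small nuclear RNAs (snRNAs) are short, stable, non-coding RNAs that work in the nucleus as protein complexes. The features described here were all those that the deposited count files list with the biotype snRNA, and there were 57 of them among 4408 features. Of the 57, 10 carried a name of their own (Rnu1a1, Rnu1b1, Rnu1b2, Rnu1b6, Rnu2-10, Rnu5g, Rnu7, Rnu11, Rnu12 and Rn7sk) and 47 carried only a number in the style of Gm24265. Each of the 57 was matched by name to a transcript of the GENCODE M21 annotation of the mouse genome (GRCm38), which lists 1385 snRNA genes, and was placed in a family when its sequence was at least 70% identical to a named one. By that rule 28 loci belonged to U1, 13 to U2, 7 to U5 and 2 to U12, while U11, U7 and 7SK had 1 locus each. Another 4 loci (Gm24265, Gm24407, Gm22710 and Gm25541) were at most 54.1% identical to any named one and are given by their own names. The set held named loci of U1, U2, U5, U7, U11, U12 and 7SK only, so the rule could not place a locus in any other snRNA family. Whether these 4 belong to such a family was not tested. Gm24265 and Gm24407 were 98.6% identical to each other and are treated as a pair.

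The U1, U2 and U5 RNAs are parts of the major spliceosome, which removes introns from nearly all pre-mRNAs: U1 pairs with the splice site at the start of the intron, U2 pairs with the branch point, and U5 holds the exon ends during joining. U11 and U12 take the places of U1 and U2 in the minor spliceosome, which acts on a small class of introns. U7 directs the cutting of histone pre-mRNAs at their ends, a step tied to DNA replication, and 7SK holds the elongation factor P-TEFb in an inactive complex. T cells that are activated through their receptor grow, raise their RNA output and divide.

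The study measured small RNAs of CD4+ T cells of the spleen and lymph nodes (mouse strain C57BL/6), and of the extracellular vesicles (EVs) that belong to the same 4 culture conditions. There were 8 groups of 3 libraries. Stimulated EVs and stimulated cells came from T cells cultured for 3 days with anti-CD3 at 2 ug/ml and anti-CD28 at 5 ug/ml. Resting EVs and resting cells came from T cells given 2 days of stimulation, 1 day of expansion and 2 days of rest in medium with interleukin-2, so the resting cells had themselves been activated before. GW4869 EVs and GW4869 cells came from T cells stimulated for 3 days with GW4869, an inhibitor of neutral sphingomyelinase that is used to lower the release of exosomes, and DMSO EVs and DMSO cells from T cells stimulated for 3 days with the solvent dimethyl sulfoxide. The doses of GW4869 and of the antibodies in these last groups, the way EVs were collected, and the size range of RNA kept for the libraries are not given in the labels. Nothing in them ties the 3 libraries of a group to separate animals or cultures. The p-values therefore rest on the spread among these libraries alone, which may be technical.

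The snRNA loci are near copies, and many can be told apart by only a few bases, which decides how far a count can be read as the count of 1 locus. The 57 loci held 43 distinct sequences, and 20 loci had at least 1 copy with an identical sequence in the set. The sequences below, from GENCODE M21 on GRCm38 and written with T in place of U, are those whose loci went apart in the values given further on; all are printed 5′ to 3′, and capitals mark bases that differ between the loci compared. The U1 loci Gm22614 (chr3:96488729-96488893, plus strand) and Rnu1b6 (chr3:96460024-96460189, minus strand) differ by the substitution T157G, counted from 1 at the 5′ end of Gm22614, and by 1 base inserted in Rnu1b6.
Gm22614: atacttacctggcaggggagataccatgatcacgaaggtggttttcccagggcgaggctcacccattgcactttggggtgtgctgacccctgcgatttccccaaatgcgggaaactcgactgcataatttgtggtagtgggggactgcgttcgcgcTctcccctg
Rnu1b6: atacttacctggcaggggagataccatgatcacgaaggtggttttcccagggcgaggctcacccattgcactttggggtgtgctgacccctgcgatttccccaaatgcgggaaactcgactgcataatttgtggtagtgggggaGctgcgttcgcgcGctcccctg
The U1 locus Rnu1a1 (chr11:87422867-87423030, plus strand) is 1 of 7 loci in the set with the same sequence. Its capitals mark positions 107 and 153, counted from 1 at its 5′ end, where 3 other U1 loci carry C107T and 5 carry C153T, most of them beside other changes.
Rnu1a1: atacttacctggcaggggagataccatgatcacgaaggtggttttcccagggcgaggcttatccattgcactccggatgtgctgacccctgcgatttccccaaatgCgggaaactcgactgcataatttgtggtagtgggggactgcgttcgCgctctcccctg
The U2 locus Rnu2-10 (chr11:101658238-101658428, plus strand) and the U2 locus Gm23444 (chr11:83271498-83271688, plus strand) differ by G109C, counted from 1 at the 5′ end of Rnu2-10.
Rnu2-10: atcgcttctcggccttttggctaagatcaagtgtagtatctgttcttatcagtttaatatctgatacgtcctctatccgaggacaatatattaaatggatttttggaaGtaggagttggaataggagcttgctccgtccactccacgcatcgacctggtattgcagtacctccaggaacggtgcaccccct
Gm23444: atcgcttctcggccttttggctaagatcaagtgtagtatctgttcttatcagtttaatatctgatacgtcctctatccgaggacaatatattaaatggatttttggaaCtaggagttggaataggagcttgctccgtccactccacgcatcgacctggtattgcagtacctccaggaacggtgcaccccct
Gm24265 (chr5:115489459-115489599, plus strand) and Gm24407 (chr5:115490254-115490394, plus strand) lie near each other and differ by G88A and C99A, counted from 1 at the 5′ end of Gm24265.
Gm24265: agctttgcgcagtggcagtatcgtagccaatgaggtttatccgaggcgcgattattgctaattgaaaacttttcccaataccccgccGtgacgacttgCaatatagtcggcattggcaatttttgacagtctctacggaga
Gm24407: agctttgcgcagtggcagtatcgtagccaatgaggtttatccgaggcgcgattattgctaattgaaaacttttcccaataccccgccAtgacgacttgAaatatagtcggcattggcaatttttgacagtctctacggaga

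The libraries held between 1290918 and 3231626 counts in all, and the snRNA features together held between 3602 and 29449 of them. The smallest snRNA count in any library was 5. Levels are given as CPM, the count of a feature relative to the library total, scaled by edgeR's TMM factors, which ranged between 0.5628 and 1.7649 over the libraries. A feature is said to have risen, fallen or been called when its p, adjusted by Benjamini-Hochberg over all 4408 features in edgeR's quasi-likelihood test, was below 0.05. All 5 microRNA markers of T cells were measured in every group, and their summed level was lower in EVs than in cells in each stimulated condition: 20910 to 32900 CPM in GW4869 EVs against 60510 to 107200 CPM in GW4869 cells. Of the markers of other cells, Mir451a (erythroid) ranged between 33.1 and 71.9 CPM in stimulated EVs and between 58.4 and 83.5 CPM in stimulated cells, against 48.2 to 95.9 CPM in resting EVs and 9.68 to 31.4 CPM in resting cells. Mir126a (platelet and endothelial) ranged between 78.3 and 86.0 CPM in stimulated EVs and between 101 and 115 CPM in stimulated cells, against 147.8 to 163.3 CPM in resting EVs and 109.9 to 116.7 CPM in resting cells. Mir200c with Mir141 (2 of 5 epithelial markers) summed to 88.5 to 108.9 CPM in stimulated EVs and 108.5 to 141 CPM in stimulated cells, against 123.3 to 141.3 CPM in resting EVs and 88.8 to 103.3 CPM in resting cells. All 3 were thus higher in EVs in the resting condition without overlap, and Mir126a was lower in EVs without overlap in the stimulated condition, as Rn7sk was. Their part in the snRNA results was not tested, and 0 of the markers listed for myeloid cells, liver, muscle and stroma were among the features analysed here.

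As a share of all counts, the snRNAs made up 1.08% to 1.20% in stimulated EVs and 0.561% to 0.650% in stimulated cells. The share was 0.176% to 0.267% in resting EVs and 0.159% to 0.194% in resting cells, 0.964% to 1.27% in GW4869 EVs and 0.932% to 1.10% in GW4869 cells, and 0.860% to 1.19% in DMSO EVs and 0.752% to 0.922% in DMSO cells. On this measure the EV and cell libraries stood fully apart in the stimulated condition and overlapped in the other 3. As a share of the counts outside protein-coding and long non-coding genes, they stood apart in the GW4869 condition (2.99% to 3.23% in EVs against 1.79% to 2.09% in cells) and in the DMSO condition (2.34% to 2.49% against 1.38% to 1.69%) as well. The ratio of group means, EVs over cells, was 1.87 in the stimulated condition, 1.17 in the resting, 1.13 in the GW4869 and 1.25 in the DMSO condition. In bulk libraries such as these, fewer cells or vesicles of a kind and less snRNA in each cannot be told apart.

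Behind that total, the families went different ways between EVs and cells. In stimulated EVs against stimulated cells, 18 of the 57 snRNAs rose and 8 fell, where 53.5% of all 4408 features were called, 27.7% higher and 25.8% lower. All 13 U2 loci were among those that rose. In resting EVs against resting cells 22 rose and 5 fell, with 34.3% of all features called, 18.9% higher and 15.4% lower, and 21 of the 22 risers were U1 loci. In GW4869 EVs against GW4869 cells 11 rose and 33 fell, with 68.2% of all features called, 36.2% higher and 32% lower. In DMSO EVs against DMSO cells 15 rose and 27 fell, with 65.4% of all features called, 37% higher and 28.4% lower. The median log2 fold over the 57 was 0.18 in the stimulated, 0.60 in the resting, -1.11 in the GW4869 and -0.53 in the DMSO condition, against medians of 0.07, 0.10, 0.18 and 0.29 over all features in the same order of conditions. These splits lean on the scaling: with library totals in place of TMM factors, which moved the median of all features by 0.44, 0.14, 0.76 and 0.59, the higher and lower calls were 32 and 5 (stimulated), 37 and 4 (resting), 20 and 14 (GW4869) and 25 and 8 (DMSO). With protein-coding and long non-coding genes left out before scaling, a setting called long genes left out, they were 32 and 5, 42 and 4, 24 and 8, and 25 and 9, and with RLE factors the stimulated split was 17 and 13.

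**Figure D1:**
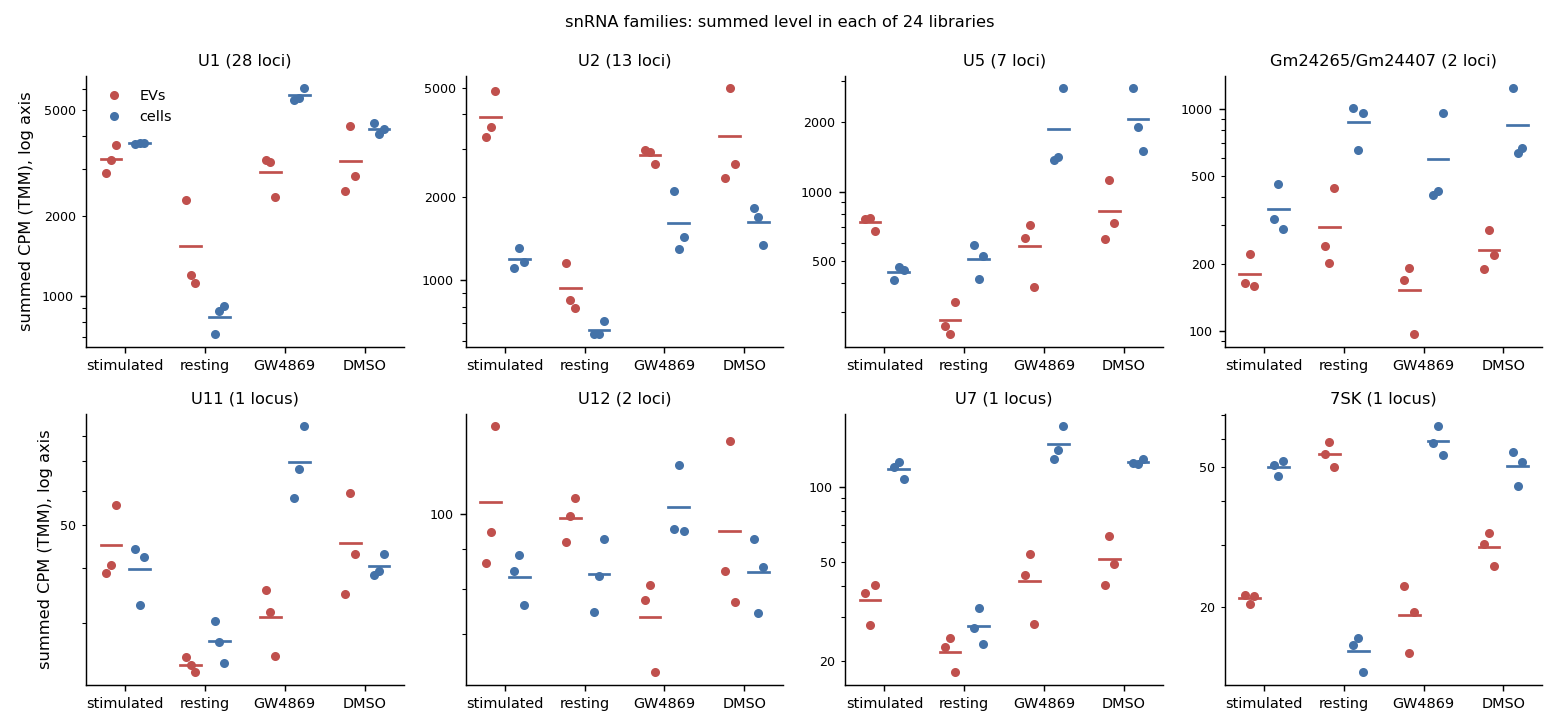
Summed level of each snRNA family in each library, in TMM-scaled CPM on a log axis, for the 4 conditions; red points are the 3 EV libraries, blue points the 3 cell libraries, and the short lines are group means. All 3 EV libraries lie above all 3 cell libraries for U2 in each condition, with 3314 to 4865 CPM in stimulated EVs against 1103 to 1308 CPM in stimulated cells, while the pair Gm24265 and Gm24407 lies lower in EVs in every condition.

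U1 was the family with the most loci and one whose direction changed with the culture condition. In stimulated EVs against stimulated cells 2 of the 28 U1 loci rose and 3 fell (median log2 fold -0.32), while in resting EVs against resting cells 21 rose and none fell (median 0.83). In GW4869 EVs against GW4869 cells 1 rose and 18 fell (median -1.12), and in DMSO EVs against DMSO cells 3 rose and 15 fell (median -0.58). The lower levels in the stimulated, GW4869 and DMSO conditions depend on the scaling: with library totals the counts were 10 higher and 3 lower, 6 and 4, and 10 and 1 in that order, with medians of 0.12, -0.36 and -0.04. The higher levels in resting EVs held under every scaling tried but leaned on 1 library, since 7 U1 loci rose without replicate 1 of the resting EVs and 10 without replicate 1 of the resting cells. The fall in DMSO EVs also depended on single libraries, with 6 higher and 4 lower without replicate 1 of the DMSO EVs and 4 and 6 without replicate 3.

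Rnu1a1, 1 of the 7 identical U1 loci, had 143, 148 and 108 CPM in GW4869 EVs and 317, 305 and 329 CPM in GW4869 cells, and the libraries did not overlap. The log2 fold was -1.25 (SE 0.25, adjusted p = 7.96e-05), a call lost with library totals (-0.50) and with long genes left out (-0.32). In the DMSO condition it was -0.69 (SE 0.24, adjusted p = 0.0161), a call lost under the same settings (-0.15 and -0.10) and without replicate 1 or 3 of the DMSO EVs or replicate 1 of the DMSO cells (log2 folds of -0.53, -0.59 and -0.59). In the stimulated condition it was -0.28 (SE 0.24, adjusted p = 0.348), with 125, 158 and 164 CPM in stimulated EVs and 186, 167 and 188 CPM in stimulated cells. Rnu1a1 had 122, 58.4 and 58.1 CPM in resting EVs against 48.8, 65.0 and 48.4 CPM in resting cells, with replicate 1 of the EVs far above the other two; the log2 fold of 0.54 (SE 0.26, adjusted p = 0.117) was called with library totals (0.69) or with long genes left out (0.76). Rnu1b1 and Rnu1b2, 2 other named U1 loci, have the same sequence as each other and are not separate measurements. They gave log2 folds of -1.11 and -1.14 in the GW4869 condition, where both fell. Neither was called with library totals (-0.35 and -0.38) or with long genes left out (-0.18 and -0.21). In the resting condition they had 0.57 and 0.78, where Rnu1b2 rose in the full set but was not called without replicate 1 of the resting EVs (0.40) or of the resting cells (0.65).

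Rnu1b6 and its identical copy Gm24830 had higher EV to cell folds than Rnu1a1 in each condition, a difference that was not tested. In stimulated EVs Rnu1b6 had 116, 129 and 153 CPM against 119, 109.9 and 121 CPM in stimulated cells, and in GW4869 EVs 113, 112 and 92.6 CPM against 124, 130.4 and 139 CPM in GW4869 cells. Neither difference was called, with log2 folds of 0.18 and -0.31. The stimulated fold was called higher with library totals (0.61) and with long genes left out (0.56), and the GW4869 fold turned round and was called higher with long genes left out (0.62). Rnu1b6 had 79.8, 29.9 and 41.4 CPM in resting EVs and 16.5, 11.0 and 17.6 CPM in resting cells. All 3 of these EV libraries lay above all 3 cell libraries, and the log2 fold of 1.73 (SE 0.31, adjusted p = 4.4e-05) was among the highest of the family. Gm24830 had log2 folds of 0.09, 1.53, -0.28 and 0.54 in the stimulated, resting, GW4869 and DMSO conditions; it rose in the resting and the DMSO one, and the DMSO call was lost without replicate 2 of the DMSO EVs (0.25) or replicate 1 or 3 of the DMSO cells (0.54 and 0.46), and with RLE factors (0.32) or only the groups compared (0.50). With library totals or long genes left out its stimulated and GW4869 folds were called higher (0.53 and 0.48, 0.48 and 0.66).

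The U1 loci with the lowest folds in stimulated EVs against stimulated cells were Gm25704 and Gm24136. Gm25704 (chr2:133008487-133008654), 85.7% identical to Rnu1a1, had 22.0, 19.7 and 20.3 CPM in stimulated EVs and 108, 107 and 102 CPM in stimulated cells. The cell libraries all lay far above the EV libraries, with a log2 fold of -2.34 (SE 0.30, adjusted p = 3.48e-07). It fell in GW4869 EVs too, with 17.6, 21.1 and 20.8 CPM against 113, 115 and 101 CPM in GW4869 cells (log2 fold -2.47), and in DMSO EVs (-1.52). Its resting log2 fold of 1.01 was called in the full set and lost without replicate 1 of the resting EVs (0.33) or any 1 replicate of the resting cells (0.96, 1.03 and 1.04), or with only the groups compared (0.91). Gm24136 (chr3:96422733-96422897), 92.7% identical to Rnu1a1, had 13.2, 19.4 and 19.6 CPM in stimulated EVs and 54.8, 56.2 and 54.8 CPM in stimulated cells, a fall with a log2 fold of -1.67 (SE 0.28, adjusted p = 1.44e-05). In resting EVs it had 57.7, 25.7 and 18.8 CPM against 9.92, 11.0 and 7.92 CPM in resting cells, a rise with a log2 fold of 1.79 (SE 0.34, adjusted p = 9.64e-05). Gm22126 (chr13:35662135-35662276), another U1 locus, had log2 folds of 1.70 in the resting and 1.31 in the DMSO condition. Its resting fold was 0.98 and not called without replicate 1 of the resting EVs, and its levels in resting cells were low (10.7, 3.92 and 4.40 CPM).

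U2 was higher in EVs in every stimulated condition. All 13 loci rose in stimulated EVs against stimulated cells, with log2 folds between 0.85 and 2.01 and a median of 1.74. In GW4869 EVs 10 rose and none fell (median 0.86), and in DMSO EVs 11 rose and none fell (median 1.08), each against cells of the same condition. In resting EVs against resting cells none of the 13 was called (median 0.49, range 0.28 to 0.88), while 9 were called higher with library totals and all 13 with long genes left out. The direction held under each scaling tried.

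Rnu2-10, the named U2 locus, had 244, 253 and 313 CPM in stimulated EVs and 69.1, 91.0 and 76.3 CPM in stimulated cells. Each EV library was above every cell library, with a log2 fold of 1.78 (SE 0.26, adjusted p = 3.01e-06). It had 237, 238 and 194 CPM in GW4869 EVs and 159, 102 and 107 CPM in GW4869 cells, and 183, 381 and 212 CPM in DMSO EVs and 141, 132 and 91.5 CPM in DMSO cells. It rose in both, with log2 folds of 0.86 (SE 0.26, adjusted p = 0.00457) and 1.08 (SE 0.26, adjusted p = 0.000794). In resting EVs it had 106, 77.1 and 61.8 CPM against 47.1, 47.0 and 65.1 CPM in resting cells, a difference that was not called (0.62, SE 0.28, adjusted p = 0.0904).

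Among the other U2 loci, Gm26316 (chr11:101604850-101605040), which carries C170T counted from 1 at the 5′ end of Rnu2-10, had the highest folds in the stimulated (2.01, SE 0.27, adjusted p = 6.27e-07) and GW4869 (1.30) conditions, and 1.57 in the DMSO condition. Gm25202 rose in stimulated EVs with a log2 fold of 1.92 (SE 0.26, adjusted p = 7.16e-07). Its smaller rises in GW4869 EVs (0.71) and DMSO EVs (0.80) were not called without replicate 2 of the GW4869 cells (0.60), replicate 2 of the DMSO EVs (0.41) or replicate 3 of the DMSO cells (0.61), and with RLE factors were 0.56 and 0.58 and not called. Gm24497 (chr1:72244213-72244403) had log2 folds of 1.66, 1.09 and 1.70 in the stimulated, GW4869 and DMSO conditions and was called in each, with the highest fold of the family in DMSO EVs. Gm23444, with the base change shown above, had 364, 385 and 551 CPM in stimulated EVs and 142, 135 and 143 CPM in stimulated cells. Gm23472 and Gm25939 had log2 folds of 1.61 and 1.63 there, and both rose. The U2 share of snRNA counts was 44.7% to 50.4% in stimulated EVs and 18.8% to 20.7% in stimulated cells, a measure that does not depend on the scaling between libraries.

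U5 was lower in EVs in the GW4869 and DMSO conditions. All 7 U5 loci fell in GW4869 EVs against GW4869 cells (median log2 fold -1.47) and all 7 in DMSO EVs against DMSO cells (median -1.26). Fewer were called lower with library totals (4 and 3) or with long genes left out (2 and 4), with medians still below 0. In stimulated EVs against stimulated cells 2 rose and none fell (median 0.68, range 0.50 to 1.40), and all 7 were called higher with library totals or with long genes left out. In resting EVs against resting cells 3 fell and none rose (median -0.78). The stimulated count was 1 without replicate 1 of the stimulated EVs or replicate 1 or 2 of the stimulated cells, and the resting count was 1 without replicate 2 of the resting EVs.

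Rnu5g, the named U5 locus, had 126, 176 and 86.9 CPM in GW4869 EVs and 412, 384 and 868 CPM in GW4869 cells, and 154, 271 and 172 CPM in DMSO EVs and 799, 604 and 436 CPM in DMSO cells. Every EV library was below every cell library in both conditions, and the highest cell libraries were replicate 3 of the GW4869 cells and replicate 1 of the DMSO cells. The log2 folds were -2.10 (SE 0.31, adjusted p = 1.58e-06) and -1.63 (SE 0.30, adjusted p = 4.77e-05). In stimulated EVs Rnu5g had 117, 119 and 115 CPM against 71.6, 96.0 and 81.1 CPM in stimulated cells, with a log2 fold of 0.50 (SE 0.30, adjusted p = 0.161) that was not called. In resting EVs it had 61.6, 47.9 and 84.3 CPM against 123, 103 and 117 CPM in resting cells, a call (-0.82, SE 0.31, adjusted p = 0.0457) that was lost with the replicate number as a block (-0.82), with library totals (-0.68), with long genes left out (-0.59) and without any 1 of 5 of the 6 libraries (log2 folds between -0.89 and -0.64; replicate 3 of the resting EVs was the exception).

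The other U5 loci mostly followed Rnu5g. Gm25313 (chr9:65196572-65196687) had log2 folds of 0.75, -0.95, -1.81 and -1.31 in the stimulated, resting, GW4869 and DMSO conditions and was called in all 4. The stimulated call was lost without replicate 1 or 3 of the stimulated EVs (0.74 and 0.71) or replicate 1 or 2 of the stimulated cells (0.69 and 0.75) or with RLE factors (0.63), and the resting call without replicate 2 of the resting EVs (-0.77). Gm25099 (chr4:117189942-117190057) fell in GW4869 EVs (-1.34) and DMSO EVs (-1.12), calls lost with library totals (-0.57 and -0.56) and with long genes left out (-0.44 and -0.52). Its DMSO fold was also not called without replicate 1 of the DMSO cells (-0.68). Gm24871 fell in resting EVs (-1.53, SE 0.31, adjusted p = 0.000225), in GW4869 EVs (-1.34) and in DMSO EVs (-1.46); the GW4869 call was lost with library totals (-0.56) and with long genes left out (-0.41).

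The pair Gm24265 and Gm24407 fell in EVs in all 4 conditions, and no other snRNA did. Gm24265 had 119, 97.9 and 240.3 CPM in resting EVs and 545, 345 and 502 CPM in resting cells. It had 90.0, 91.2 and 53.9 CPM in GW4869 EVs and 199, 202 and 465 CPM in GW4869 cells, and in both conditions the EV and cell libraries did not overlap. The log2 folds of Gm24265 were -1.02 in the stimulated, -1.60 (SE 0.35, adjusted p = 0.000642) in the resting, -1.88 in the GW4869 and -1.84 in the DMSO condition, and those of Gm24407 were -0.90, -1.53, -2.02 and -1.89. The stimulated calls were the least stable: both were lost without replicate 1 or 3 of the stimulated EVs (medians of the pair -0.90 and -0.88) or replicate 2 of the stimulated cells (-0.74), and with library totals or long genes left out. As a share of snRNA counts, the pair took 1.64% to 2.74% in stimulated EVs and 4.80% to 7.26% in stimulated cells, and 5.77% to 15.0% in resting EVs and 23.4% to 32.1% in resting cells.

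The U11 and U12 loci, which belong to the minor spliceosome, were each called in at most 2 of the 4 conditions. Rnu11 (U11, chr4:132270080-132270213) had 35.6, 31.9 and 25.7 CPM in GW4869 EVs and 57.3, 66.9 and 83.3 CPM in GW4869 cells, a fall with a log2 fold of -1.16 (SE 0.22, adjusted p = 6.62e-05) that was not called with library totals (-0.39) or with long genes left out (-0.23). It was not called in the stimulated (0.18), resting (-0.18) or DMSO (0.18) condition, but rose in stimulated and DMSO EVs with library totals (0.60 and 0.73) and with long genes left out (0.54 and 0.79). Rnu12 (U12, chr15:83149644-83149794) had 47.8, 43.7 and 36.3 CPM in GW4869 EVs and 63.8, 90.3 and 75.1 CPM in GW4869 cells, a fall (-0.84, SE 0.21, adjusted p = 0.00117) that was not called with library totals (-0.08) and whose sign turned when long genes were left out (0.09). Its near copy Gm24525 (chr5:7177706-7177856), 96.0% identical to Rnu12, had 36.2, 43.5 and 63.5 CPM in stimulated EVs and 18.9, 22.4 and 15.5 CPM in stimulated cells. It rose there (1.33, SE 0.28, adjusted p = 0.000249) and in DMSO EVs (1.34, SE 0.30, adjusted p = 0.000357), where Rnu12 had uncalled log2 folds of -0.19 and -0.25. Gm24525 lies inside the gene Zfp804b, whose own count was between 1.17 and 3.00 times that of Gm24525 over the libraries; whether the same reads were counted for both was not tested.

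Rnu7 (U7, chr6:124741225-124741286) was lower in EVs in each stimulated condition. It had 37.7, 27.8 and 40.3 CPM in stimulated EVs and 119, 125 and 107 CPM in stimulated cells, 44.3, 53.7 and 28.6 CPM in GW4869 EVs and 128, 140.1 and 174 CPM in GW4869 cells, and 40.7, 62.9 and 49.5 CPM in DMSO EVs and 123, 122 and 128 CPM in DMSO cells. No EV library reached the lowest cell library of its condition. The log2 folds were -1.73 (SE 0.23, adjusted p = 5.31e-07), -1.80 (SE 0.23, adjusted p = 2.01e-07) and -1.29 (SE 0.23, adjusted p = 2.59e-05), and each stayed called under every scaling tried. In resting EVs Rnu7 had 22.9, 25.0 and 18.3 CPM against 27.3, 32.9 and 23.7 CPM in resting cells, and the groups overlapped (log2 fold -0.35, SE 0.26, adjusted p = 0.334).

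Rn7sk (7SK, chr9:78175303-78175633) fell in EVs of every stimulated condition and was the snRNA with the highest rise in resting EVs. It had 21.7, 20.3 and 21.4 CPM in stimulated EVs and 50.6, 46.7 and 51.8 CPM in stimulated cells, and all EV libraries lay far below all cell libraries. In resting EVs it had 54.5, 59.0 and 50.8 CPM against 15.7, 16.4 and 13.2 CPM in resting cells, with the order of the groups turned round. The log2 fold was -1.23 (SE 0.19, adjusted p = 6.94e-06) in the stimulated condition and 1.85 (SE 0.22, adjusted p = 1.07e-07) in the resting one. In GW4869 EVs it had 22.8, 14.8 and 19.6 CPM against 57.8, 64.9 and 53.6 CPM in GW4869 cells, and the fold of -1.62 (SE 0.20, adjusted p = 1.03e-07) stayed called under every scaling tried. In DMSO EVs it had 30.3, 31.9 and 26.3 CPM against 54.4, 43.7 and 51.1 CPM in DMSO cells (log2 fold -0.75, SE 0.19, adjusted p = 0.00148), a call lost with library totals (-0.18) and with long genes left out (-0.10). No library, left out alone, changed any of these 4 calls.

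The last 2 loci had lower counts. Gm25541 (chr2:27539805-27539930) fell in GW4869 EVs against GW4869 cells with a log2 fold of -2.15 (SE 0.38, adjusted p = 2.55e-05). It had 2.39, 7.53 and 4.58 CPM in DMSO EVs and 40.0, 27.8 and 17.9 CPM in DMSO cells, a fall as well (-2.63, SE 0.36, adjusted p = 7.95e-07), with no overlap of the libraries in either condition. Its stimulated call (-1.05, SE 0.44, adjusted p = 0.0486) was lost without any 1 of 5 of the 6 libraries (log2 folds between -1.07 and -0.75; replicate 3 of the stimulated cells was the exception), with the replicate number as a block (-1.04), with library totals (-0.59) and with long genes left out (-0.65). Gm22710 (chr1:118459141-118459265) fell in GW4869 EVs, with 8.78, 8.15 and 5.71 CPM against 23.2, 17.6 and 28.8 CPM in GW4869 cells (log2 fold -1.62, SE 0.38, adjusted p = 0.000509), a call lost with long genes left out (-0.69). It was not called in the other 3 conditions.

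**Figure D2:**
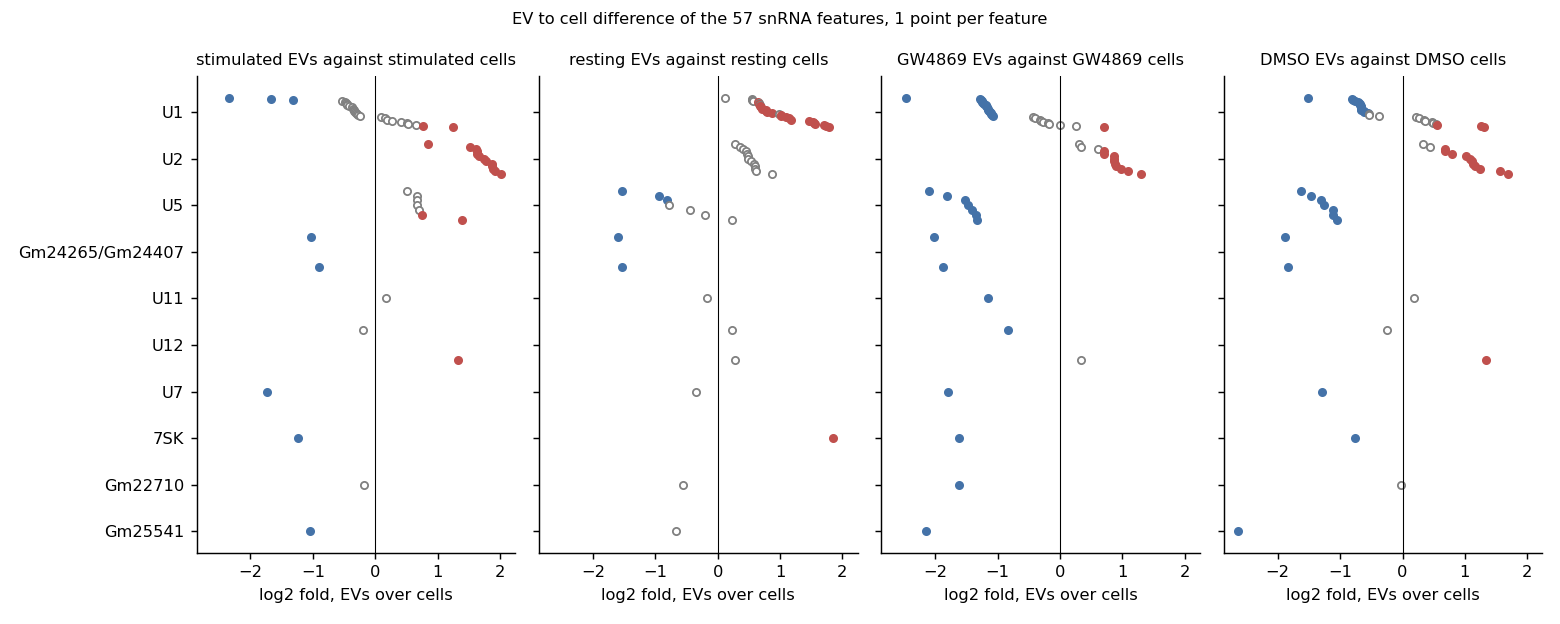
Log2 fold of EVs over cells for each of the 57 snRNA features, grouped by family, in the 4 conditions; filled red points rose, filled blue points fell and open grey points were not called. U2 lies above 0 in all conditions and the pair Gm24265 and Gm24407 below 0, while 7SK is between -1.62 and -0.75 in the stimulated, GW4869 and DMSO conditions and at 1.85 in the resting one; the U1 points have medians of -0.32 and -0.58 in the stimulated and DMSO conditions, and of 0.12 and -0.04 there with library totals.

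Most snRNAs were higher in stimulated than in resting libraries. In stimulated cells against resting cells 38 of 57 rose and 4 fell, where 46.1% of all features were called, 23% higher and 23.1% lower, and the median log2 fold was 1.73 against -0.05 over all features. In stimulated EVs against resting EVs 47 rose and 2 fell, with 54.1% of all features called, 28.9% higher and 25.2% lower, and the median was 1.09 against 0.09. All 28 U1 loci rose in cells (median 2.17, range 1.60 to 2.96), and 25 rose in EVs and 1 fell (median 0.97). Of the 13 U2 loci, 7 rose in cells (median 0.74) and all 13 in EVs (median 1.84, range 1.71 to 2.62). Of the 7 U5 loci, 1 rose and 1 fell in cells (median 0.24), while all 7 rose in EVs (median 1.41). Library totals moved the median of all features by 0.82 in cells and 1.12 in EVs, and under them 49 rose and none fell in cells and 50 rose and none fell in EVs.

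Within cells, Rnu1b6 had the highest fold, at 119, 109.9 and 121 CPM in stimulated cells and 16.5, 11.0 and 17.6 CPM in resting cells. All 3 stimulated libraries were far above the resting ones (log2 fold 2.96, SE 0.30, adjusted p = 9.04e-09). Gm22126 followed at 2.85, with low levels of 10.7, 3.92 and 4.40 CPM in resting cells. Rnu1a1 had a log2 fold of 1.74 (SE 0.26, adjusted p = 4.05e-06). Rnu7 rose with a log2 fold of 2.06 (SE 0.24, adjusted p = 1.44e-07), at 119, 125 and 107 CPM in stimulated cells and 27.3, 32.9 and 23.7 CPM in resting cells. Rn7sk rose as well (1.71, SE 0.22, adjusted p = 3.4e-07), at 50.6, 46.7 and 51.8 CPM against 15.7, 16.4 and 13.2 CPM. Against this trend Gm24265 and Gm24407 fell, with log2 folds of -1.34 (SE 0.35, adjusted p = 0.00236) and -1.31. Gm24265 had 155, 244 and 151 CPM in stimulated cells and 545, 345 and 502 CPM in resting cells, with no overlap. With library totals neither of the pair was called (median -0.53). The 2 other falls, both lost with library totals (-0.20 and -0.19) or long genes left out (-0.39 and -0.38), were in the U5 locus Gm24871 (-1.01, SE 0.30, adjusted p = 0.00625) and in Gm22710 (-1.02, SE 0.35, adjusted p = 0.0183), the second of which was lost without replicate 1 of the resting cells (-0.89) or replicate 1 or 2 of the stimulated cells (-0.92 and -0.96). Rnu2-10 (0.57, SE 0.27, adjusted p = 0.0924), Rnu5g (-0.46), Rnu11 (0.53, SE 0.24, adjusted p = 0.0694) and Rnu12 (0.25) were not called; Rnu2-10, Rnu11 and Rnu12 rose with library totals (1.38, 1.36 and 1.06) and with long genes left out (1.19, 1.17 and 0.88).

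Within EVs, the highest folds were those of the U2 loci Gm24497 (2.62, SE 0.26, adjusted p = 4.15e-09) and Gm23444 (2.38, SE 0.24, adjusted p = 6.25e-09). Gm23444 had 364, 385 and 551 CPM in stimulated EVs and 96.4, 69.5 and 83.2 CPM in resting EVs, with every stimulated library above every resting one. Gm23472 (2.36), Gm25939 (2.33), Gm26316 (2.17) and Rnu2-10 (1.73) rose as well. Rn7sk fell, at 21.7, 20.3 and 21.4 CPM in stimulated EVs and 54.5, 59.0 and 50.8 CPM in resting EVs (log2 fold -1.37, SE 0.20, adjusted p = 1.97e-06). That call was lost with library totals, under which the fold was -0.25. The other fall was in the U1 locus Gm24136 (-0.95, SE 0.29, adjusted p = 0.00737), at 13.2, 19.4 and 19.6 CPM in stimulated EVs against 57.7, 25.7 and 18.8 CPM in resting EVs; it was -0.35 and not called without replicate 1 of the resting EVs, and its sign turned with library totals (0.15). Rnu11 rose (0.88, SE 0.23, adjusted p = 0.00241), and so did Rnu5g (0.85, SE 0.31, adjusted p = 0.0216) and Rnu7 (0.68, SE 0.25, adjusted p = 0.0219), whose calls were lost with RLE factors (0.70 and 0.53), without replicate 1 or 2 of the resting EVs (0.82 and 0.68) for Rnu5g and without replicate 3 of the resting EVs (0.56) or replicate 1 or 3 of the stimulated EVs (0.63 and 0.58) for Rnu7.

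**Figure D3:**
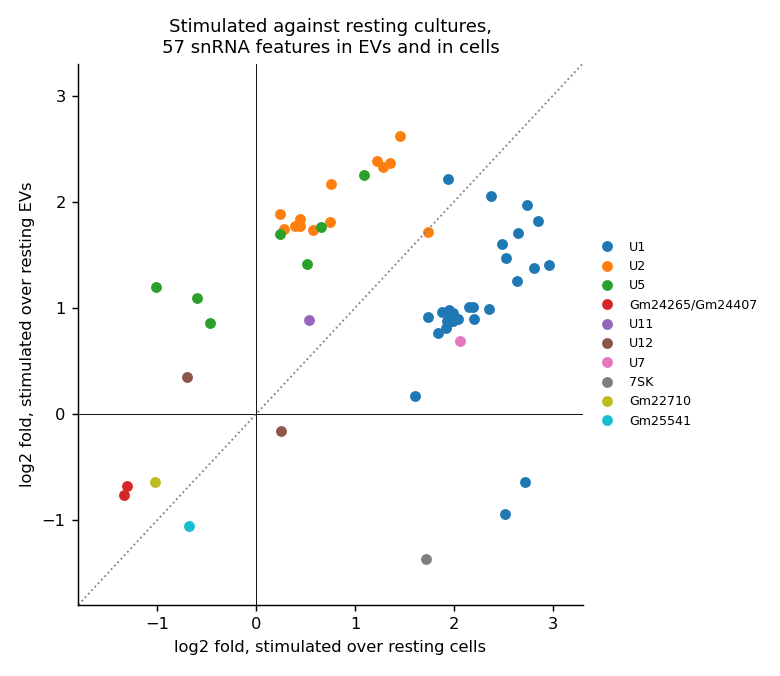
Log2 fold of stimulated over resting libraries in EVs (vertical axis) against the same fold in cells (horizontal axis), 1 point for each of the 57 snRNA features, coloured by family; the dotted line marks equal folds. The U1 median is 0.97 in EVs and 2.17 in cells, to the right of the line, the U2 median (1.84 and 0.74) and the U5 median (1.41 and 0.24) lie to its left, and 7SK lies at -1.37 in EVs and 1.71 in cells.

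The ratio of EVs to cells was set between the 2 conditions by testing the difference of their log2 folds, which uses the same 12 libraries as the comparisons above. The ratio was higher in the stimulated than in the resting condition for 17 snRNAs and lower for 23, where 35.8% of all features were called, 15.2% higher and 20.7% lower; with library totals the split was 19 and 13. All 23 that were lower came from U1 (21), U7 and 7SK, and 12 of the 17 that were higher were U2 loci and 4 were U5 loci. The U1 count rests partly on replicate 1 of the resting EVs: without it 8 U1 loci were lower, and 26 snRNAs were called in all. Rn7sk changed by -3.08 (SE 0.29, adjusted p = 9.92e-09), Gm24136 by -3.46 (SE 0.43, adjusted p = 7.79e-07), Gm25704 by -3.36 and Rnu7 by -1.38 (SE 0.35, adjusted p = 0.00311). On the other side, Gm24871 changed by 2.20 (SE 0.42, adjusted p = 0.000231), Gm25313 by 1.69 and Gm25202 by 1.65. Rnu2-10 changed by 1.16 (SE 0.38, adjusted p = 0.0188), a call lost without replicate 3 of the resting EVs or of the resting cells (0.99 in both). Rnu5g changed by 1.32 (SE 0.43, adjusted p = 0.0198), a call lost without replicate 2 of the resting EVs (1.14).

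Few snRNAs were called between GW4869 and DMSO, though some summed shares stood apart. In cells the snRNA share of all counts was 0.932% to 1.10% with GW4869 and 0.752% to 0.922% with DMSO, without overlap. In EVs that share overlapped, at 0.964% to 1.27% and 0.860% to 1.19%. As a share of counts outside protein-coding and long non-coding genes, GW4869 lay above DMSO without overlap in both EVs and cells. No test was run on these shares. In GW4869 EVs against DMSO EVs none rose and 2 fell, where 17.6% of all features were called, 7.89% higher and 9.69% lower. Rn7sk had 22.8, 14.8 and 19.6 CPM in GW4869 EVs and 30.3, 31.9 and 26.3 CPM in DMSO EVs, without overlap (log2 fold -0.63, SE 0.20, adjusted p = 0.0322). The call was lost without replicate 2 of the DMSO EVs (-0.57) or replicate 2 or 3 of the GW4869 EVs (-0.34 and -0.53). Gm22710 fell too (-1.09, SE 0.38, adjusted p = 0.0458), at 8.78, 8.15 and 5.71 CPM in GW4869 EVs against 10.9, 27.0 and 11.7 CPM in DMSO EVs, and lost its call without replicate 2 of the DMSO EVs (-0.58) or any 1 replicate of the GW4869 EVs (-1.09, -1.02 and -0.80). Neither was called with library totals, with long genes left out or with only the groups compared. With the replicate number as a block Gm22710 was -1.07 and not called. In edgeR's test 4 of the 57 had an unadjusted p under 0.05, against 34.9% of all features. In GW4869 cells against DMSO cells Gm24830 rose (0.79, SE 0.22, adjusted p = 0.0476), a call lost with the replicate number as a block (0.80) and without any 1 of the 6 libraries (0.71 to 0.88), and no snRNA fell, where 2.99% of all features were called, 2.88% higher and 0.113% lower. An unadjusted p under 0.05 in edgeR's test was reached by 12 of the 57 there, 11 higher and 1 lower, against 13% of all features.

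The difference in EV to cell ratio between the GW4869 and the DMSO condition was called for 1 snRNA, where 7.58% of all features were called, 1.75% higher and 5.83% lower. Rnu11 had 35.6, 31.9 and 25.7 CPM in GW4869 EVs and 35.1, 58.4 and 43.2 CPM in DMSO EVs, against 57.3, 66.9 and 83.3 CPM in GW4869 cells and 38.2, 39.2 and 42.4 CPM in DMSO cells. All 3 GW4869 cell libraries lay above all DMSO cell libraries, while the EV libraries overlapped. Its ratio changed by -1.34 (SE 0.32, adjusted p = 0.00985), a call lost without replicate 3 of the GW4869 EVs (-1.07) and with only the groups compared (-1.19). Rn7sk (-0.87, SE 0.28, adjusted p = 0.0519) and Gm22710 (-1.59, SE 0.52, adjusted p = 0.0582) had lower ratios with GW4869 that were not called.

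The 10 named loci and the 47 Gm-named loci were set side by side in each comparison. In stimulated EVs against stimulated cells 1 named locus rose and 2 fell (median log2 fold -0.23), and 17 Gm-named loci rose and 6 fell (0.51). In resting EVs against resting cells the named loci gave 3 risers and 1 faller (0.56) and the Gm-named loci 19 and 4 (0.60). In GW4869 EVs the counts were 1 and 8 (-1.15) for named and 10 and 25 (-1.08) for Gm-named loci, and in DMSO EVs 1 and 6 (-0.61) and 14 and 21 (-0.38), each against cells. The 2 sets hold the families in different proportions: 12 of the 13 U2 loci are Gm-named. They also share sequences, since Rnu1a1, Rnu1b6 and Rnu2-10 each have identical copies among the Gm-named loci. Likeness between the 2 sets is thus partly built in, most of all within U1. Within U1 alone, the 4 named loci had medians of -0.29, 0.68, -1.12 and -0.61 in the stimulated, resting, GW4869 and DMSO conditions, and the 24 Gm-named loci had -0.33, 0.92, -1.12 and -0.57. In stimulated cells against resting cells the named loci gave 6 risers and no faller (median 1.72) and the Gm-named loci 32 and 4 (1.73). In stimulated EVs against resting EVs the named loci gave 8 and 1 (0.87) and the Gm-named loci 39 and 1 (1.38). The named loci together took 12.9% to 13.6% of the snRNA counts in stimulated EVs and 17.0% to 18.3% in stimulated cells, and 17.2% to 18.5% in resting EVs and 13.7% to 15.9% in resting cells.

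Loci with identical sequences had close counts in a typical library. Over the 6 sets of identical loci, the highest count divided by the lowest had a median over libraries between 1.07 and 1.17, and reached 1.2 to 1.79 in the most uneven library of each set. Their reads cannot be told apart by sequence, and how the authors divided reads with several alignments is not given in the sources used here. Thus the 7 U1 loci identical to Rnu1a1 do not give 7 separate measurements, and the counts of loci called above hold such repeats. With the loci of each family summed to 1 feature before the fit, U2 had log2 folds of 1.72, 0.50 (not called), 0.82 and 1.04 in EVs against cells in the stimulated, resting, GW4869 and DMSO conditions, and was called in the other 3. Summed U1 had -0.19, 0.88, -0.96 and -0.40 and was called in the resting and GW4869 conditions. Summed U5 had 0.72, -0.88, -1.69 and -1.33 and was called in all 4. In all, 19 members lie inside a longer listed gene, and some of the 19 are also identical copies. Some of those genes carry little else. The count of D230017M19Rik was between 1.00 and 1.03 times the summed counts of Gm23472, Gm24497 and Gm25939.

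Ratios of counts within a library do not depend on scaling between libraries. These groupings of loci were chosen after their values were seen, so the ratios are given as a description. The log2 ratio of summed U2 to summed U1 counts was 0.14 to 0.40 in stimulated EVs and -1.76 to -1.53 in stimulated cells. It was -0.13 to 0.16 in GW4869 EVs and -2.10 to -1.38 in GW4869 cells, and -0.10 to 0.19 in DMSO EVs and -1.66 to -1.26 in DMSO cells. In the resting condition the order was turned round, with -0.99 to -0.50 in resting EVs and -0.46 to -0.18 in resting cells. U2 relative to U1 was thus higher in every EV library than in every cell library of the same stimulated condition, and lower in resting EVs than in resting cells.

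Within the U1 family, count ratios between sets of loci differed between EVs and cells. Rnu1b6 and Gm22614 differ by the marked bases alone. Of the 5 loci with C153T, 4 differ from Rnu1a1 by 4 to 10 substitutions, and the 3 loci with C107T differ from it by 9 to 20, so those ratios are not comparisons of single bases. The log2 ratio of the mean count of Rnu1b6 and its copies to that of Gm22614 and its copy was -0.14 to -0.07 in stimulated EVs and -0.56 to -0.51 in stimulated cells. It was -0.61 to -0.42 in resting EVs and -1.55 to -0.94 in resting cells, and -0.36 to -0.25 in DMSO EVs and -1.63 to -1.28 in DMSO cells. In each of these conditions, and in the GW4869 one, all EV libraries lay above all cell libraries. The 5 loci with C153T, set against Rnu1a1 and its copies, also lay higher in EVs: -0.32 to -0.29 in stimulated EVs and -1.24 to -1.13 in stimulated cells. The 3 loci with C107T (Gm23511, Gm24136 and Gm25704) went the other way in the stimulated condition, with -3.19 to -3.14 in stimulated EVs and -1.70 to -1.55 in stimulated cells. In the resting condition they had -1.98 to -1.39 in resting EVs and -2.31 to -1.80 in resting cells, and the libraries overlapped. The DMSO libraries overlapped too, at -3.09 to -2.77 in DMSO EVs and -2.78 to -2.31 in DMSO cells. The GW4869 libraries stood apart, at -3.14 to -2.87 in GW4869 EVs and -2.57 to -2.26 in GW4869 cells.

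In U2 the count ratio of loci with the marked base to loci without it overlapped between EVs and cells. The 2 U2 loci with G109C and no other difference (Gm23444 and Gm23472), set against Rnu2-10 and its copies, had log2 ratios of 0.49 to 0.75 in stimulated EVs and 0.69 to 0.99 in stimulated cells, against -0.18 to 0.25 in resting EVs and -0.10 to 0.10 in resting cells. That ratio separated the stimulated from the resting libraries in both compartments. It was 0.31 to 0.51 in GW4869 EVs and 0.29 to 0.37 in GW4869 cells. In the DMSO condition it was 0.27 to 0.48 in EVs and -0.02 to 0.38 in cells. EVs overlapped cells in each of the 4 conditions. Between 2 U5 loci, Rnu5g over Gm25099 had a log2 ratio of -0.80 to -0.46 in stimulated EVs and -0.69 to -0.29 in stimulated cells, -0.07 to 0.27 in GW4869 EVs and 0.63 to 1.14 in GW4869 cells, and 0.11 to 0.35 in DMSO EVs and 0.54 to 1.10 in DMSO cells. The cells treated with GW4869 or DMSO had the highest ratios, and the stimulated libraries the lowest.

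**Figure D4:**
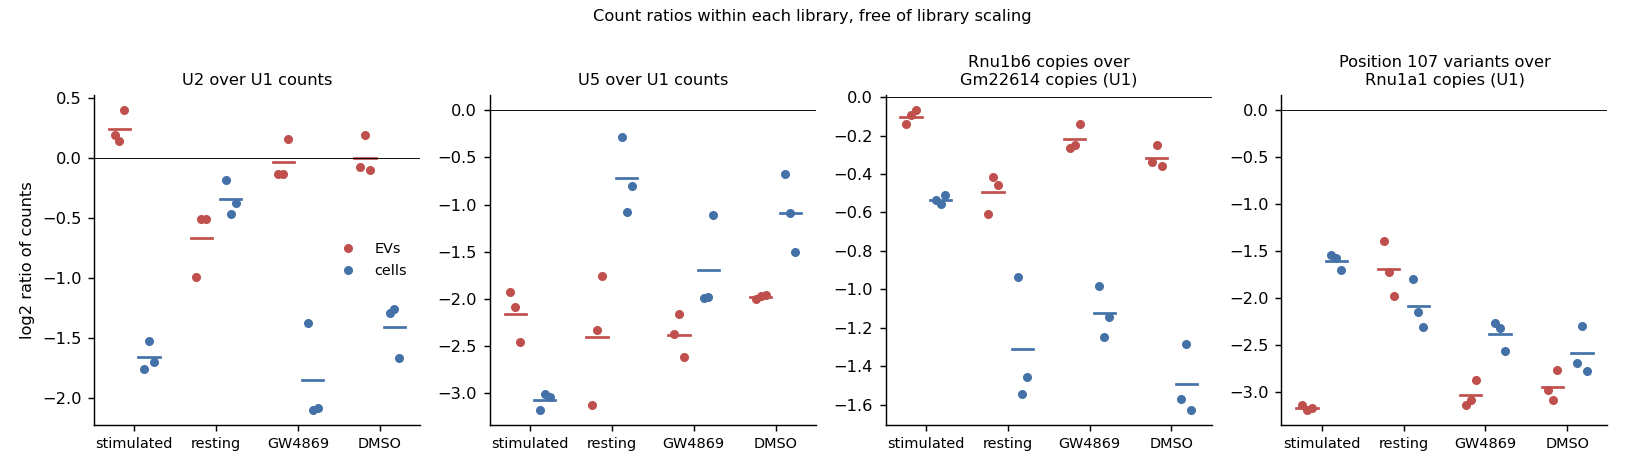
Log2 ratios of snRNA counts within each library, for U2 over U1, U5 over U1, Rnu1b6 copies over Gm22614 copies, and the U1 loci with the base change at position 107 over the Rnu1a1 copies; red points are EV libraries and blue points cell libraries of each condition. In the stimulated condition U2 over U1 lies at 0.14 to 0.40 in EVs and at -1.76 to -1.53 in cells, and the position 107 ratio at -3.19 to -3.14 in EVs and at -1.70 to -1.55 in cells.

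Other nuclear and RNA polymerase III small RNAs give a setting for these values. All 152 small nucleolar and Cajal body RNAs (snoRNAs, which guide the modification of ribosomal RNA, and scaRNAs, which guide that of snRNAs) were tested with the snRNAs, and 149, 130, 150 and 149 of them fell in EVs against cells in the stimulated, resting, GW4869 and DMSO conditions, with none rising (medians -2.65, -1.72, -3.22 and -2.59). The snRNAs had higher medians in each condition, a difference that was not tested. Of the 3 scaRNAs measured, 2 fell in EVs in each condition, and Scarna10 had log2 folds of -1.85, -1.11, -2.18 and -0.84. Among 8 other small RNAs of this kind, 7 rose in resting EVs, while 3 rose and 2 fell in stimulated EVs, each against cells. The EV to cell ratio was lower in the stimulated than in the resting condition for 7 of the 8, as for Rn7sk, where 20.7% of all features were called lower. The signal recognition particle RNA Rn7s1 had a log2 fold of -0.77 in the stimulated and 1.71 in the resting condition, the same signs as Rn7sk. Rn7s2 had -0.81 and 1.68, and Rn7s6 had -0.22 (not called) and 3.45. The ribonuclease RNA Rmrp had 0.92 in the resting and -1.84 in the GW4869 condition, while the Y RNA Rny1 was higher in EVs in all 4 (2.85, 3.40, 1.69 and 2.03). Of 64 genes for proteins of the snRNP and 7SK complexes 3 had counts in the files, and none of these 3 was higher in EVs outside the resting condition, where 1 rose and 1 fell.

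Across the 8 group means of log2 CPM, the features outside the snRNAs with the pattern most like that of Rn7sk were Dgkz (Pearson r = 0.956), Abcf1 (0.946) and Mir877 (0.941). Abcf1 and Mir877 had close mean levels in each group, such as 46.2 and 44.0 CPM in resting EVs. Whether the same reads were counted for both was not tested. Those most like Rnu5g were Hhat (0.967), Flt3l (0.952) and Dnm3 (0.951). Hhat holds the U5 locus Gm22265 within its span, and whether reads of that locus were also counted for it was not tested. These correlations are over 8 groups that share library depth and scaling.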

How the data were processed

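Small RNA libraries were deposited as 1 file of whole-number read counts per feature; per the file headers these were raw counts, not normalized, and the submitters' processing notes name Bowtie and the mouse builds GRCm38 and mm10. How reads with several alignments were treated, and the tool that made the counts, are not given in the sources used here. Deposited count files held 4441 lines, and 33 full duplicates were left out, leaving 4408 features. Rn7sk stood on 2 lines, as snRNA and as misc_RNA, with equal counts in all 24 libraries, and the snRNA line was used. Groups came from the labels.

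Counts were fitted with edgeR 4.0.16 (R 4.3.3; quasi-likelihood test, two-sided, TMM factors, 1 mean for each of 8 groups, 24 libraries), with p-values adjusted by Benjamini-Hochberg over all 4408 features; the filter on low counts (filterByExpr, minimum count 10) removed 0 features. The code was tested on simulated data. CPM are scaled by TMM factors. DESeq2 1.42.0, RLE factors, library totals, a minimum count of 50, fits of only the groups compared, a replicate block, summed families, long genes left out and single libraries left out were the alternatives. Sequences were aligned with Biopython 1.88. Named with values are all loci with a name of their own, the 8 Gm-named loci with the highest mean CPM and, in each comparison, the 2 highest and 2 lowest called folds; Gm24525 and Gm22710, where not among these, and the base changes were chosen after their values were seen. The members, lists and comparisons were chosen with earlier results of these data known.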

Additional observations from a re-analysis of the deposited data

Results flagged for a closer look

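The following loci had an EV to cell ratio that differed between 2 conditions in edgeR's test of the difference itself, given as the stimulated minus the resting log2 fold. The ratio was lower in the stimulated condition for Rn7sk (-3.08), Rnu7 (-1.38) and the U1 loci Gm24136 (-3.46), Gm25704 (-3.36), Rnu1b6 (-1.55), Gm24830 (-1.44), Rnu1b2 (-1.07) and Rnu1b1 (-0.92). Of these, Rnu1b1 lost its call with the replicate number as a block (-0.90) and library totals (-0.63), without replicate 1 of the resting EVs (-0.44) and without any 1 of 7 other libraries (-0.94 to -0.80), and Rnu1b2 with library totals (-0.79) and without replicate 1 of the resting EVs (-0.70). The ratio was higher in the stimulated condition for the U2 loci Gm25202 (1.65), Gm26316 (1.41), Gm23444 (1.17), Gm24497 (1.17), Rnu2-10 (1.16), Gm25939 (1.05) and Gm23472 (1.00), and for the U5 loci Gm24871 (2.20), Gm25313 (1.69), Gm25099 (1.46) and Rnu5g (1.32). Gm23472 lost its call without any 1 of 7 libraries (0.79 to 1.02), Gm25939 without any 1 of 3 (0.84 to 0.99) and Gm25099 without replicate 1 of the resting cells (1.22). Between GW4869 and DMSO the ratio was lower with GW4869 for Rnu11 (-1.34). These differences share libraries with the comparisons of the report and with each other. Some of these loci have identical sequences and are not separate measurements: Rnu1b1 with Rnu1b2, Rnu1b6 with Gm24830, and Gm23444 with Gm23472.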

How the results depend on the processing

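Of the 57 snRNAs, 27 were called in resting EVs against resting cells, 41 with library totals, 46 with long genes left out, and between 12 (without replicate 1 of the resting EVs; 15 without replicate 1 of the resting cells) and 34 with 1 library left out. With the loci of each family summed, the called features of 10 were 6 (stimulated), 4 (resting), 10 (GW4869), 6 (DMSO), 6 (stimulated against resting cells), 6 (stimulated against resting EVs) and 5 (ratio, stimulated against resting). With only the groups compared, 40 in place of 26 were called in the stimulated condition. The ratio between stimulated and resting had 26 to 39 calls with 1 library left out. In GW4869 EVs against DMSO EVs, 2 calls became 0 with library totals, long genes left out or only the groups compared, 1 with the replicate block, and 0 to 3 with 1 library left out. In GW4869 cells against DMSO cells, 1 call became 5 with library totals, 7 with long genes left out, 2 with a minimum count of 50 or only the groups compared, and 0 with DESeq2, RLE factors, summed families, the replicate block or any 1 library left out. The ratio between GW4869 and DMSO had 1 call, 2 with a minimum count of 50, 0 with only the groups compared, and 0 to 3 with 1 library left out. The snRNA share in EVs over cells was 1.59 (GW4869) and 1.61 (DMSO) over counts outside long genes. Signs turned for Rnu1b1 in DMSO EVs against cells (0.059, long genes left out), for Gm24830 (0.48 with library totals, 0.66 with long genes left out), Rnu12 (0.088) and Rnu1b6 (0.62, both with long genes left out) in GW4869 EVs against cells, and for Gm24136 (0.15, library totals) and Rnu12 (0.95 and 0.61) in stimulated against resting EVs. The cause was not tested. Same-numbered libraries did not deviate together (correlations -0.37 to 0.16), and the replicate block gave 25, 25, 44, 41, 42, 49, 38, 1, 0 and 1 calls in the 10 comparisons in the order of the report. No value with a minimum count of 50 could be had for 2 of the 57. Low counts limit Gm25541, Gm23511 and Gm22710. In resting cells they also limit other loci, such as Gm22126 with 10.7, 3.92 and 4.40 CPM.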

Other observations

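Levels across culture conditions that are set against each other in no comparison above also differed, and no test was run. The summed level of the 7 U5 loci was 1377 to 2807 CPM in GW4869 cells, 1498 to 2804 CPM in DMSO cells, 413 to 470 CPM in stimulated cells and 418 to 588 CPM in resting cells. In EVs it was 388 to 714 CPM with GW4869, 623 to 1120 CPM with DMSO, 674 to 769 CPM in the stimulated and 240 to 332 CPM in the resting condition. Gm25541 had 14.2 to 21.1 CPM in GW4869 cells, 17.9 to 40.0 CPM in DMSO cells, 2.59 to 7.46 CPM in stimulated cells and 5.28 to 9.92 CPM in resting cells. Whether these cultures were run together is not given in the sources used here.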
